A study of Mus musculus with 4 samples.

Results

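Gm30835 (ENSMUSG00000105068) is an annotated long noncoding RNA gene of mouse chromosome 5, and it was chosen because its RNA was abundant in Neuro-2a (N2a) cells and close to undetected in the other cell lines of the same experiment. It is 1 of 33565 genes listed in the deposited matrices. The experiment was a cell line mixture processed with CapSeq, a split-pool single-cell RNA sequencing method in which cells are enclosed in gelatin capsules and receive the barcode segments BC1, BC2 and BC3 in successive rounds. The samples were N2a, an established mouse neuroblastoma line, NIH/3T3, an established mouse fibroblast line, and E14TG2a mouse embryonic stem cells (mESCs), the latter kept on gelatin with leukemia inhibitory factor, CHIR99021 and PD0325901. N2a and NIH/3T3 cells were grown in serum without added factors, and the labels name no other treatment and no genetic change. Each line occupied its own 32 BC1 sequences and was 1 culture in 1 library, so differences between lines have no replicate check, and all intervals below are exact 95% intervals that cover counting error only.

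Long noncoding RNAs are transcripts without an open reading frame known to be translated. Some act in the nucleus near the place where they are made, for example by holding chromatin proteins at imprinted genes, others build nuclear bodies, and for many, Gm30835 included, no role can be stated here. Neuroblastoma arises from the sympathoadrenal lineage of the neural crest, and lines such as N2a keep part of the gene expression of that lineage.

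In the GRCm39 build, with the GENCODE M39 annotation, Gm30835 lies on the minus strand at chr5:7730108-8014301. It spans 284194 bases, of which 4491 (1.58%) are in an exon of any of its 7 transcripts. The 7 transcripts have 7 different 3′ ends, and 104 exonic bases are common to all of them. That stretch, chr5:8009025-8009128 on the minus strand, is shown because it is the part of the RNA that does not depend on the transcript chosen.
Gm30835 common exon: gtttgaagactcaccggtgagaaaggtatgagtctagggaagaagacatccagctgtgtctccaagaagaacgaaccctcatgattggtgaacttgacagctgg

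The gene is long and mostly intronic, and the way in which STARsolo counted introns is not given in the sources used here, so its UMIs can come from spliced or unspliced RNA. The ends of the transcripts were examined because the poly(A) tail of an RNA is added there. AATAAA, the canonical polyadenylation signal, was found on the transcribed strand in the last 60 bases of 2 of 7 transcripts, and the variant ATTAAA in none. In the same annotation, 48.5% of all transcripts and 46.7% of lncRNA transcripts hold AATAAA in that window. The motif is in capitals in the ends that contain it, end a at chr5:7994937-7994996 and end b at chr5:8008151-8008210, both on the minus strand. The most distal end, end c at chr5:7730108-7730167, has no match and is printed beside them.
Gm30835 end a: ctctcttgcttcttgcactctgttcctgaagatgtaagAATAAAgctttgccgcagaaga
Gm30835 end b: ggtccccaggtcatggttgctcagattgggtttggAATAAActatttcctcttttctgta
Gm30835 end c: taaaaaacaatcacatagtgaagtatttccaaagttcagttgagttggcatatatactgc

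The body of the gene also holds 5 runs of at least 15 A on the transcribed strand. The 30 genomic bases that follow each end contained from 0 to 14 A. Annotated genes that overlap Gm30835 number 4, all 4 on the plus strand. Among them is Steap4, a metalloreductase gene that starts head to head with it and whose first exon covers from 83 to 278 bases of the first exon of 4 Gm30835 transcripts. Whether counting used strand is not given in the sources used here, so reads of the shared bases cannot be told apart. Steap4 was assigned 3 UMIs in N2a cells and 0 in the other lines (chosen for mention after its values were seen).

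Gm30835 was among the most abundant RNAs of N2a cells. Over 2323 N2a cells it had 62764 UMIs, a level of 3496 CPM (3468 to 3523), where CPM is the UMIs of a gene scaled to 1000000 UMIs of all genes. Its level ranked 3 of 22407 genes detected in N2a and 1 of 10839 annotated lncRNA genes. The next lncRNA was Malat1, a nuclear RNA found in most cell types, at 2127 CPM in N2a, and unlike Gm30835 its level was higher in NIH/3T3 (6891 CPM) and in mESCs (4656 CPM). Lncpint followed at 789 CPM, and it was found at 211 CPM in NIH/3T3 cells and at 72.5 CPM in mESCs. These levels are UMIs not corrected for the length of the gene.

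In NIH/3T3, 2037 cells held 51 Gm30835 UMIs, a level of 4.36 CPM (3.25 to 5.73). In mESCs, 2137 cells held 55 UMIs, or 4.46 CPM (3.36 to 5.81). The N2a level was 802-fold (610 to 1077) that of NIH/3T3 and 783-fold (602 to 1040) that of mESCs. NIH/3T3 and mESCs were neighbours in the order, and their ratio of 1.02 had an interval of 0.687 to 1.53. At least 1 UMI was seen in 96.5% of N2a cells (95.6 to 97.2%), in 2.45% of NIH/3T3 cells and in 2.57% of mESCs, at median depths of 6185, 4863 and 4803 UMIs per cell. No NIH/3T3 cell held more than 2 UMIs and no mESC more than 1, while the highest N2a cell held 280 UMIs among 39364. These are the values for which the gene was chosen and are given as a description.

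The few UMIs outside N2a were compared with those of other N2a-restricted genes, since free or misassigned RNA can reach cells that do not make it. The Gm30835 level in NIH/3T3 was 0.125% of that in N2a (0.0929 to 0.164%), and in mESCs it was 0.128% (0.0962 to 0.166%). For Syt6, a synaptotagmin, these shares were 0.224% and 0.197%, and for Clvs1, a phosphoinositide-binding protein of clathrin-coated vesicles, 0.113% and 0.193%. Hand2, a transcription factor of sympathetic neurons, stood at 0.275% and 0.442%, Isl1 at 0% and 1.48%, and Gata2 at 10.9% and 10.3%, so these genes did not share 1 level. The Gm30835 shares were near those of Syt6 and Clvs1 and below those of Hand2 and Gata2, and whether its UMIs in the other lines come from their own cells was not tested. No cell barcode was shared between the lines, but this follows from their separate BC1 sequences and says nothing about misassigned RNA.

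Within N2a, Gm30835 varied more from cell to cell than counting alone gives. When each cell was thinned to 1000 UMIs, the mean was 3.35 UMIs per cell and the variance 6.33, a variance of 1.89 times the mean. The 5th, 50th and 95th percentiles were 0, 3 and 8 UMIs and the highest cell held 16. No UMI was drawn in 251 of 2323 cells, 10.8% (9.57 to 12.1%), where a Poisson distribution of the same mean has 3.49%. At the same depth, 0.491% of NIH/3T3 cells and 0.515% of mESCs had a UMI. The spread was not particular to Gm30835: of 24 genes with a mean between 0.5 and 2 times its own, 10 had a larger ratio of variance to mean. Their median ratio was 1.62, and Cmss1 (7.35), Cdk8 (6.16) and Pde10a (4.25) had the largest.

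**Figure D1:**
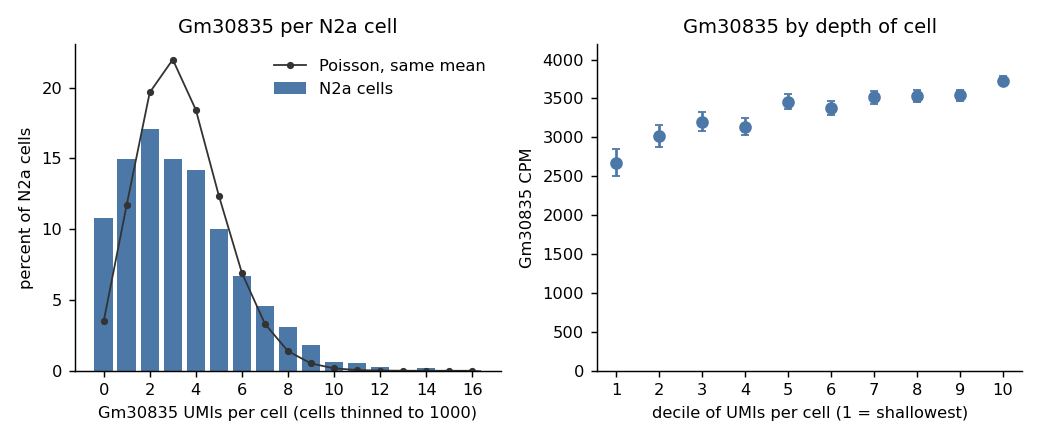
Left, percent of 2323 N2a cells (bars) by Gm30835 UMIs after thinning each cell to 1000 UMIs, with the Poisson distribution of the same mean (line); the bar at 0 is at 10.8% against 3.49% for the line, and the bars reach 16 UMIs. Right, Gm30835 CPM (linear axis from 0) in 10 groups of N2a cells ranked by UMIs per cell, with exact 95% counting intervals; the level is 2672 CPM in the shallowest group and 3730 CPM in the deepest.

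The excess of zeros over a Poisson distribution was also present in deeper cells. Among 2070 cells thinned to 2000 UMIs, 3.09% were at 0, against 0.112% for Poisson, and the variance was 2.66 times the mean. Among 1850 cells thinned to 3000 UMIs, 17 (0.919%) were at 0, against 0.00315%, and the variance was 3.57 times the mean. The ratio of variance to mean grows with the number of UMIs drawn, and its part above 1, divided by the mean, was 0.265, 0.244 and 0.248 at 1000, 2000 and 3000 UMIs. Without thinning, the share of Gm30835 per 10000 UMIs ran from 0 to 137, with a median of 30.5 and a 75th percentile of 45.1.

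The level was lower in shallow cells. Ranked by UMIs, the shallowest group of cells (1012 to 1905 UMIs) had 2672 CPM (2499 to 2853) and the deepest (15654 to 47407 UMIs) 3730 CPM (3676 to 3784). Over the 32 BC1 sequences, which mark wells of 1 culture and are not replicates of a condition, the level was 2938 CPM at the lowest, 3465 CPM at the median and 4117 CPM at the highest, with an SD of 303 CPM. The counting interval of 12 of 32 wells held the level over all cells, but these intervals leave out the variation between cells, and whether wells differed beyond it was not tested. N2a barcodes below the cell filter held Gm30835 at 2706 CPM, 0.774 (0.755 to 0.793) of the level in cells. Of 2597 genes with at least 100 CPM, 119 had a lower ratio, and the median gene stood at 0.913. Malat1 stood at 0.845 there, Actb at 1.27 and the mitochondrial mt-Nd4 at 2.14.

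Cells with no Gm30835 at all were few and mostly shallow. They numbered 82 (3.53% of N2a cells), with a median of 1625 UMIs, and 10 of them had at least 3000 UMIs, among 1850 such cells. If each of the 1850 cells held the mean share of Gm30835, 0.00173 cells would be expected at 0. The cells at 0 had a median mitochondrial share of 0.205%, against 2.11% over all N2a cells. Of the 10 cells at 0 with at least 3000 UMIs, however, only 2 were under 0.5%. A set of cells with under 0.5% mitochondrial UMIs, singled out after its values were seen, was also 82 in number, and 44 of the 82 had no Gm30835 UMI, against 38 of the other 2241 cells. Their summed Gm30835 level was nevertheless 3768 CPM (3531 to 4016), against 3492 CPM in the other cells, and 51 of these 82 cells were among the lowest 15% of N2a cells and 15 among the highest 15%. The same cells stood apart in other genes, with Cmss1 at 9411 CPM against 1830 CPM and the endoplasmic reticulum chaperone Hspa5 at 112 CPM against 768 CPM. They had a median of 1892 UMIs and came from 28 of 32 BC1 sequences. The overall counts of genes and those of the G2/M, lncRNA, ribosomal and mitochondrial lists are also given without these cells.

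To see which genes varied with Gm30835, N2a cells were ranked by its share of their UMIs and the lowest and highest 15%, 348 cells each, were compared. The groups were chosen on Gm30835, so its own values are a description: the low cells held from 0 to 14.5 per 10000 UMIs and 915 CPM in sum, and the high cells from 52.9 to 137 per 10000 and 6651 CPM. At the borders, the last low cell was at 14.500 and the next cell at 14.504 per 10000, and the first high cell was at 52.945 and the cell before it at 52.932. Cells of all 32 BC1 sequences were in each group. Low cells were shallower, with a median of 3865 UMIs against 6458, and had more mitochondrial RNA (median 2.31% against 1.82%). Ribosomal protein genes took 8.81% of the UMIs of low cells and 6.41% of those of high cells. Markers of the other lines were near 0 in both groups, with 9.09 and 7.34 CPM summed over 15 NIH/3T3 markers and 14.8 and 18.2 CPM over 15 mESC markers in low and high cells. For all other genes, CPM was computed without the UMIs of Gm30835.

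Since the groups come from 1 culture and cells are not replicates, no test was run between them. A gene was instead counted where its summed CPM differed by at least 1.5-fold in the same direction in both of 2 sets of 16 BC1 sequences, set A and set B. Of 4625 genes with a mean of at least 50 CPM, 357 (7.72%) were higher in Gm30835-high cells and 94 (2.03%) lower. That mean is taken over both groups, so a gene of low level can enter through the group where it is higher. A 2-fold difference in both sets was seen for 110 genes higher and 7 lower, and a 4-fold difference for 18 genes, all 18 higher. The median log2 ratio over all 4625 genes was -0.08, with the 5th and 95th percentiles at -0.55 and 0.85. When groups of equal depth were taken, with medians of 6202 and 6189 UMIs per cell, 287 genes were higher and 78 lower, and 271 and 62 of these were the same genes. In groups matched for mitochondrial share 288 genes were higher and 88 lower (270 and 62 of them the same genes), and without the cells under 0.5% mitochondrial UMIs 296 were higher and 88 lower (284 and 66 the same genes). Groups drawn by the Gm30835 count after thinning each cell to 1000 UMIs, so that many cells tie, gave 159 higher and 22 lower, of which 141 and 18 were the same genes.

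**Figure D2:**
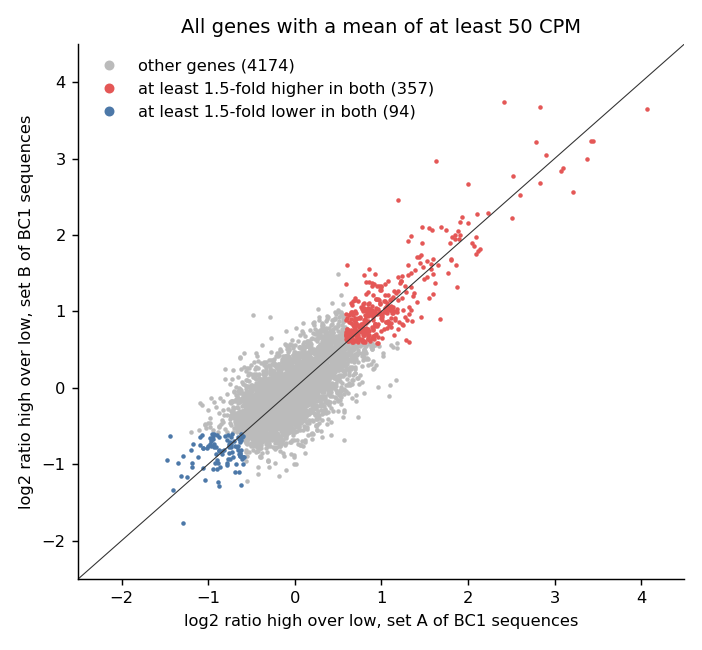
Each point is 1 of 4625 genes with a mean of at least 50 CPM in N2a cells, placed by its log2 ratio of CPM in Gm30835-high over Gm30835-low cells in set A (x) and set B (y) of BC1 sequences; the line marks equal ratios. The 357 red genes are at least 1.5-fold higher in both sets and the 94 blue genes at least 1.5-fold lower, and the red cloud reaches above a log2 ratio of 3 in both sets while the blue one ends above -2.

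The genes with the largest ratios encoded transporters, enzymes, a nuclear receptor and noncoding RNAs. The 10 with the largest ratio in set A, where they were ranked, had a median ratio of 8.92. In set B, which did not enter the ranking, the median was 8.14 (5.93 to 12.8). The minimum mean CPM was taken over both sets, however, so set B helped to decide which genes could be picked. Its ratios are therefore not fully independent of the choice. Of the 10, Slc47a2, Zfp804b, Gm50423, Gm26862 and Olfr171 were below 50 CPM in low cells and passed that minimum only through the high cells. Slc47a2, a multidrug and toxin extrusion transporter, was at 21.0 CPM in low and 307 CPM in high cells, with ratios of 16.8 in set A and 12.6 in set B. Its paralog Slc47a1 lies next to it (chr11:61192457-61233686 and chr11:61234226-61269171), and was at 91.5 and 713 CPM, with ratios of 8.43 and 7.12. How reads shared by paralogs were assigned is not given in the sources used here.

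Acer3, an alkaline ceramidase that cleaves ceramide to sphingosine, was at 111 CPM in low and 1126 CPM in high cells, a ratio of 10.7 in set A and 9.40 in set B. Dcdc2a, a doublecortin-domain protein of microtubules and cilia, was at 85.8 and 872 CPM, with ratios of 10.9 and 9.38. Both differed about as much as the transporters although neither lies on their chromosome. Esr1, the estrogen receptor alpha, was at 92.6 and 732 CPM (7.49 and 8.28), and Slc15a5, a member of the peptide transporter family, at 95.5 and 649 CPM (7.11 and 6.44). The zinc finger gene Zfp804b, which lies on chromosome 5 near Gm30835, was at 18.2 and 143 CPM (8.56 and 7.32).

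The other 3 of the 10 were 2 lncRNA genes and an olfactory receptor gene, each with fewer UMIs. Gm50423 was at 15.3 and 141 CPM in low and high cells, with ratios of 10.4 in set A and 8.01 in set B. Gm26862 was at 11.9 and 108 CPM, with ratios of 7.09 and 12.8. Olfr171, a member of a large multigene family, was at 13.1 and 97.5 CPM, with ratios of 9.28 and 5.93. In groups matched for depth, the ratios of the 10 genes were between 5.18 (Olfr171) and 10.4 (Slc47a2). In groups drawn by the thinned count they were smaller, from 1.59 (Zfp804b) and 2.80 (Slc15a5) to 4.36 (Dcdc2a), with Slc47a2 at 3.06 and Acer3 at 4.18. Over all alternatives run, the ratios of the 10 ranged from 1.59 to 30.9, the latter for Gm26862 with the outer 10% of cells.

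**Figure D3:**
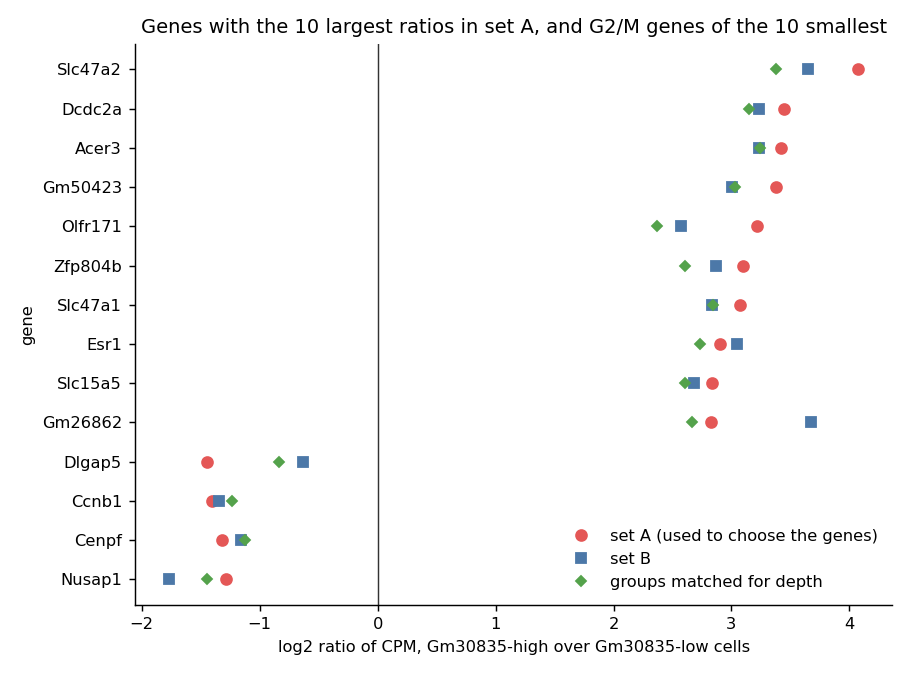
Log2 ratio of CPM in Gm30835-high over Gm30835-low N2a cells for the genes with the 10 largest ratios in set A of BC1 sequences and for the members of the G2/M list among the 10 smallest (circles), with the ratio in set B (squares) and in groups matched for depth (diamonds). Every point of the 10 upper genes lies right of 2 and every point of the G2/M genes left of 0.

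Most of the upper genes had, like Gm30835, little RNA in the other lines. Slc15a5 was at 372 CPM over all N2a cells, 0.769 CPM in NIH/3T3 cells and 0.406 CPM in mESCs, and Esr1 at 406, 1.03 and 1.95 CPM. Acer3 was an exception, with 579 CPM in N2a, 125 CPM in fibroblasts and 38.1 CPM in stem cells. Of the 4625 genes compared, 199 were N2a-restricted in the sense that their level plus 1 CPM was at least 10-fold the level plus 1 CPM of each other line. Of those 199, 53 (26.6%) were higher in Gm30835-high cells and 1 was lower, with a median log2 ratio of 0.29, beside 7.72% higher, 2.03% lower and a median of -0.08 over all genes. Most N2a-restricted genes did not differ by 1.5-fold in both sets. Syt6 was at 490 CPM in low and 469 CPM in high cells (ratio 0.957, 0.878 to 1.04) and Clvs1 at 371 and 349 CPM (0.941, 0.852 to 1.04). Together with Hand2 they form the list of N2a-restricted comparators, of which 0 of 3 measured members were higher and 0 lower (median log2 -0.09). Hand2 was at 517 and 345 CPM, a ratio of 0.655 in set A and 0.690 in set B, with 1 of the 2 short of 1.5-fold.

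A ranking over all deep cells, without groups, gave many of the same genes. Over 1850 N2a cells thinned to 3000 UMIs, the Pearson correlation of Gm30835 with 3743 genes ran from -0.21 to 0.46 with a median of -0.01, and 11 genes reached 0.3. These cells share a library and a culture, and the groups above were drawn from the same cells, so the correlations are a description and no independent support. Cntn3, a contactin of neuronal cell adhesion, was most like Gm30835 (r = 0.456), followed by Acer3 (0.429), Dcdc2a (0.384), Pde10a (0.376) and Slc47a1 (0.368). At 1000 UMIs per cell the correlation of Cntn3 was 0.307. Cntn3 was at 693 CPM in Gm30835-low and 2625 CPM in Gm30835-high cells. Pde10a, a phosphodiesterase of cyclic nucleotides, was at 1564 and 6093 CPM. Among the 10 genes most like Gm30835, the correlation between pairs was 0.167 to 0.509, with a median of 0.296. At the other end stood mt-Cytb (r = -0.208), the chromatin protein Hmgb2 (-0.194), Rps24 (-0.184), mt-Atp6 (-0.184) and mt-Atp8 (-0.174). At 1000 UMIs mt-Cytb and mt-Atp6 had correlations of 0.0098 and 0.056, so the sign of both turned with that setting, which also takes in shallower cells.

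Genes of mitosis were lower in Gm30835-high cells. Of 38 measured members of a G2/M list, 24 were lower by at least 1.5-fold in both sets and 0 higher, with a median log2 ratio of -0.81 beside 2.03% lower and a median of -0.08 over all genes. The 24 became 18 without the cells under 0.5% mitochondrial UMIs, 15 without the 5% of cells with the most UMIs, and 14 when each cell was given equal weight. Ccnb1, the cyclin that drives entry into mitosis, was at 233 CPM in low and 90.2 CPM in high cells, with ratios of 0.379 in set A and 0.395 in set B. Cenpf, a kinetochore protein, was at 435 and 189 CPM (0.401 and 0.448), and Nusap1, a spindle protein, at 109 and 38.1 CPM (0.410 and 0.294). Top2a, the topoisomerase that separates chromosomes, was at 1172 and 674 CPM (0.520 and 0.647), and the proliferation marker Mki67 at 475 and 283 CPM (0.646 and 0.548). Smc4, a condensin subunit, was at 657 and 530 CPM and did not pass 1.5-fold.

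The 10 genes with the smallest ratios in set A included Sgo1, Dlgap5, Ccnb1, Prc1, Cenpf, Knop1, Nusap1, Mtres1 and Gtf2h2. Several act at the centromere or spindle, among them Sgo1, which protects cohesion of sister chromatids, and Prc1, which bundles midzone microtubules. Mtres1, a mitochondrial protein, and Gtf2h2, a subunit of TFIIH, do not have such roles. The median ratio of the 10 was 0.405 in set A and 0.512 in set B, where they ranged from 0.294 to 0.671, and Gtf2h2 did not pass 1.5-fold there. In groups drawn by the thinned count, with 22 genes lower in all, the ratios of the 10 ran from 0.472 (Nusap1) to 0.865 (Gtf2h2). Ccnb1 was at 0.561, Cenpf at 0.597 and Sgo1 at 0.694 in those groups.

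Read the other way, Gm30835 was lower in cells with more G2/M RNA. When N2a cells were ranked by their summed G2/M UMIs among 1000 and divided into 3 equal groups, Gm30835 was at 3888 CPM (3837 to 3939) in the group with the fewest, 3478 CPM in the next and 3147 CPM (3103 to 3191) in the group with the most. The group with the most held 165 of the 348 low cells and 86 of the 348 high cells, while the group with the fewest held 79 and 150. Median depths of these groups were 5930, 6309 and 6325 UMIs per cell. Ranked by S phase genes, the levels of 3717, 3285 and 3484 CPM were not in order. When the low and high cells were drawn within the G2/M groups, 2 of the 38 G2/M genes stayed lower, as the matching is built to do, while 303 genes in all were higher and 48 lower. Of these, 277 and 32 were among the genes counted without matching.

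In the S phase list, 2 of 30 measured genes were higher, a share close to the 7.72% over all genes, and 0 lower (median log2 -0.10). They were Slbp, which binds the stem-loop of histone mRNAs, at 123 and 304 CPM in low and high cells, and Pola1, the catalytic subunit of DNA polymerase alpha, at 182 and 305 CPM. The helicase Hells (376 and 378 CPM) and Rrm1 (241 and 202 CPM) did not pass, nor did Dtl (277 and 428 CPM). The list was thus spread around the median of all genes, unlike the G2/M list.

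Lists of N2a lineage and neuronal genes were close to the median of all genes. Over all genes compared, 7.72% were higher and 2.03% lower. In the sympathoadrenal list 2 of 11 measured genes were higher and 0 lower (median log2 0.08). Alk, the receptor tyrosine kinase altered in part of human neuroblastomas, was at 1230 CPM in low and 2360 CPM in high cells, and Slc18a2, the vesicular monoamine transporter, at 118 and 186 CPM. Ret (270 and 304 CPM) and Chgb (304 and 308 CPM) did not pass. In the neuronal list 1 of 21 was higher and 0 lower (median log2 0.11), namely Syt1, the calcium sensor of synaptic vesicles, at 359 and 613 CPM. Map1b (1663 and 1583 CPM), Dpysl3 (499 and 460 CPM) and Rbfox2 (415 and 524 CPM) did not pass.

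Stress and metabolic lists had few members past the fold. In the list of the integrated and unfolded protein stress response, 1 of 23 was higher, beside 7.72% over all genes, and 0 lower (median log2 -0.17). That gene was Ddit3, which encodes CHOP, at 35.2 CPM in low and 110 CPM in high cells, with ratios of 3.41 and 2.83 in sets A and B. Hspa5 (779.5 and 768 CPM), Hsp90b1 (771 and 737 CPM) and Atf4 (501 and 372 CPM), the factor upstream of Ddit3, did not pass. Counts were 0 higher and 0 lower for 5 measured immediate early genes (median log2 0.28), 4 p53 targets (0.21), 16 genes of glycolysis and hypoxia (-0.37) and 15 of cholesterol synthesis (0.01). Among these, Jun was at 96.0 and 146 CPM, Mdm2 at 131 and 158 CPM, Ldha at 591 and 440 CPM, and Srebf2 at 207 and 301 CPM.

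Other lncRNAs were often higher with Gm30835, though not all. Of 13 measured members of the lncRNA list, 6 were higher and 0 lower, with a median log2 ratio of 0.64, beside 7.72% higher over all genes. Without the cells under 0.5% mitochondrial UMIs 5 were higher, and 7 when each cell was given equal weight. In groups matched for depth 4 were higher, with a median log2 ratio of 0.44. Neat1, the scaffold of paraspeckles, was at 30.1 CPM in low and 238 CPM in high cells, with ratios of 6.91 in set A and 9.31 in set B. Snhg14, the long host transcript of an imprinted snoRNA cluster, was at 61.4 and 276 CPM, Sox2ot at 40.9 and 134 CPM, and Dleu2 at 129 and 382 CPM. Airn, transcribed antisense to Igf2r, was at 318 and 601 CPM and Pvt1, a neighbour of Myc, at 259 and 450 CPM. Malat1, also a nuclear RNA, was at 2365 and 2194 CPM (0.928, 0.892 to 0.965), and Gas5 at 557 and 464 CPM. Of all 69 lncRNA genes compared, 23 (33.3%) were higher, against 7.34% of 4553 protein-coding genes. The median log2 ratios of these classes were closer, at 0.11 and -0.09.

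**Figure D4:**
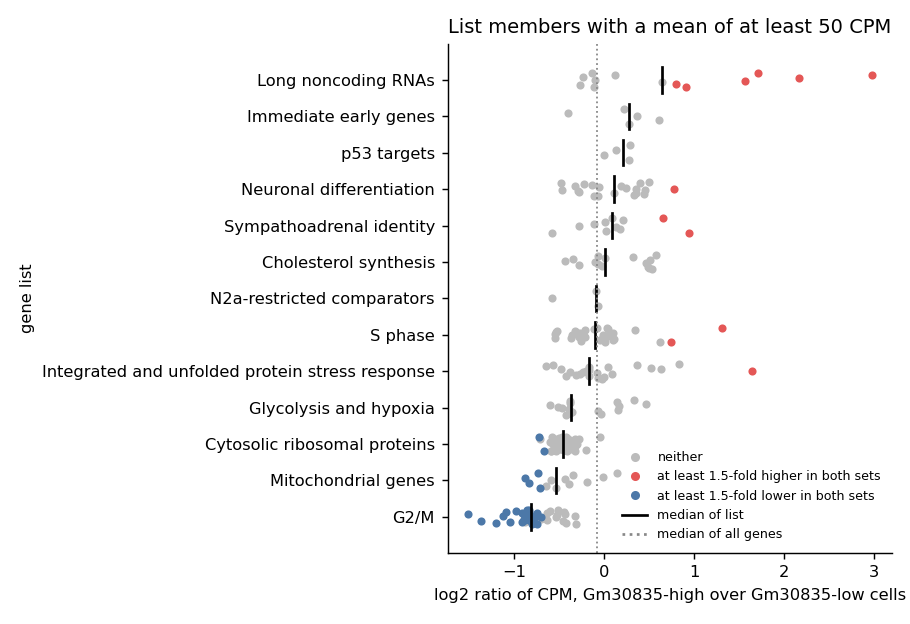
Log2 ratio of CPM in Gm30835-high over Gm30835-low N2a cells for the members of 13 gene lists with a mean of at least 50 CPM (points), with the median of each list (black bar) and of all genes (dotted line, -0.08). Red and blue points differ by at least 1.5-fold in both sets of BC1 sequences; 24 of 38 G2/M genes are blue and 6 of 13 lncRNAs red.

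The ratio also followed the length of the gene. Genes under 5 kb had a median log2 ratio of -0.36 and 1.40% of 285 were higher, while for genes of 200 kb or more the median was 0.49 and 32.3% of 371 were higher. The medians between lay in order, from -0.28 for 5 to 20 kb to 0.17 for 100 to 200 kb. In groups matched for depth, the shortest and longest classes were at -0.30 and 0.35. Genes of at least 100 kb took 19.3% of the UMIs in low and 26.7% in high cells. Gm30835, Cntn3, Pde10a, Esr1 and Zfp804b are long genes, whereas Olfr171 (5987 bases), Slc47a1 (34946 bases) and Slc47a2 (41230 bases) are not.

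RNAs of the translation machinery and of mitochondria stood on the other side. Of 77 cytosolic ribosomal protein genes 2 were lower (Rpl38 and Rpl41) and 0 higher, a share close to the 2.03% over all genes, while the median log2 ratio of the list was -0.46. The count was 0 in groups matched for depth or mitochondrial share and without the cells under 0.5% mitochondrial UMIs, and 15 when each cell was given equal weight. Rps29, the one with the most UMIs, was at 2264 CPM in low and 1507 CPM in high cells. Of 13 mitochondrially encoded genes 4 were lower (mt-Nd5, mt-Atp8, mt-Nd3 and mt-Nd4l) and 0 higher, with a median log2 ratio of -0.54. The count was 5 without the cells under 0.5% mitochondrial UMIs, 1 when each cell was given equal weight and 0 in groups matched for mitochondrial share. When groups were matched for mitochondrial share these medians were -0.35 and -0.11. Long genes, lncRNAs, ribosomal genes, mitochondrial genes and depth thus moved together with Gm30835, and the part of each in the ratios of single genes was not tested beyond the matched counts given.

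The neighbourhood of Gm30835 was not higher in N2a as a whole. Of 25 other genes listed within 2 Mb, 15 had at least 5 CPM in 1 of the lines, and 4 of the 15 were highest in N2a. Summed over all 25 genes, there were 610 CPM in N2a, 826 CPM in fibroblasts and 691 CPM in stem cells. The difference between lines seen for Gm30835 was thus not shared by this sum. Elapor2 had 171 CPM in N2a, 0.256 CPM in fibroblasts and 6.49 CPM in stem cells. Zfp804b, the nearest N2a-restricted gene on the side of the 3′ end and on the same strand, was at 84.4, 1.20 and 7.47 CPM, and Rundc3b at 28.6, 0.427 and 9.82 CPM. Steap1 and Steap2, relatives of the overlapping Steap4, were at 0.167 and 0.111 CPM in N2a but at 48.0 and 68.5 CPM in NIH/3T3.

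**Figure D5:**
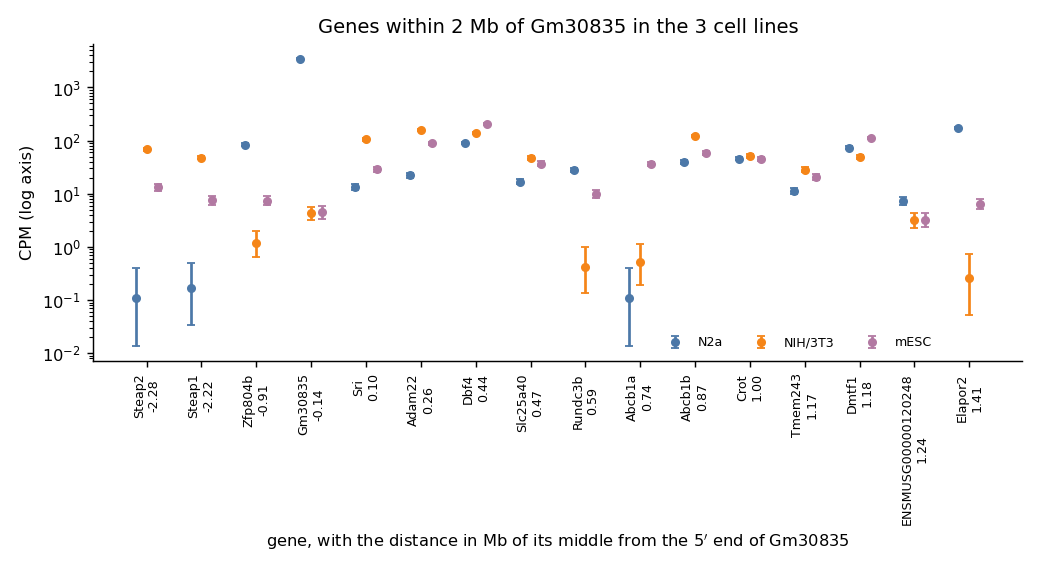
CPM (log axis) in N2a, NIH/3T3 and mESC cells, with exact 95% counting intervals, for Gm30835 and the 15 genes within 2 Mb with at least 5 CPM in any line, in order along the chromosome; the number under each name is the distance in Mb of its middle from the 5′ end of Gm30835. Gm30835, at 3496 CPM in N2a, stands above every neighbour, and Zfp804b, Rundc3b and Elapor2 are the neighbours that exceed the other lines in N2a by the widest margin.

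Between low and high N2a cells, Zfp804b again went with Gm30835. Its ratio was 7.88 (5.49 to 11.7), the largest among neighbours with at least 50 CPM, but it was 1.59 in groups drawn by the count after thinning to 1000 UMIs. Elapor2 had 1.44 (1.23 to 1.70), Dmtf1 1.32 (1.05 to 1.67) and Dbf4, the activator of the replication kinase Cdc7, 0.711 (0.582 to 0.871), none of them past 1.5-fold. Summed over all 25 genes listed within 2 Mb the ratio was 1.31 (1.21 to 1.42). Over the whole genome cut into 10 Mb windows, the window with Gm30835, its own UMIs left out, had a log2 ratio of 0.24. The median of 267 windows was -0.001, their range -0.52 to 1.34, and 42 windows were higher than that of Gm30835. In groups matched for depth the value was 0.17, and with 5 Mb windows it was 0.29, with 70 of 488 windows higher.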

How the data were processed

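The matrices analysed hold UMI counts per gene and cell barcode, 1 per line plus 1 pooled over the lines, and were deposited by the authors as raw counts. The authors made them with the CapMux pipeline: reads were split by BC1, trimmed with Cutadapt, and STARsolo then aligned and counted them on the GRCm39 build and the GENCODE M30 gene models. The counting mode for introns, the strand setting and the treatment of reads shared by genes are not given in the sources used here. Positions and transcripts came from GENCODE M39 on the same build, in which 32953 of 33565 gene identifiers were found.

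Barcodes were taken as cells from 1000 UMIs upwards, unless over 20% of these were mitochondrial, as in the study's methods: 2323 N2a, 2037 NIH/3T3 and 2137 mESC barcodes, after 7, 15 and 18 were removed for mitochondrial share. They held 17955221, 11697865 and 12322098 UMIs. Doublets were not called. Thinning drew UMIs without replacement with a fixed seed. CPM intervals are exact Poisson, shares exact binomial (Clopper-Pearson), and ratios exact conditional binomial.

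The gene, its groups and the gene lists were chosen with earlier results of these data known. Genes were named by rule: neighbours within 2 Mb with at least 5 CPM, the 10 largest and 10 smallest ratios in set A, the 5 highest and 5 lowest correlations, of each list up to 4 members with the highest mean CPM and any past the fold, and Syt6 and Clvs1. The lists, 15 in all, were matched by symbol. The comparison was tested on simulated data with known changes. There, all cells of a group had the same gene levels, so variation between cells beyond counting was not included. How such variation affects the counts of genes was not tested. Computations used Python 3.11.15 with numpy 2.4.6, scipy 1.17.1 and pandas 2.3.3. No columns of fold changes were among the files. A withheld item is not reported here.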

Additional observations from a re-analysis of the deposited data

Results flagged for a closer look

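Gm30835 UMIs were also found in barcodes below the cell filter in the matrices of the other lines, which enter no comparison of the report. In NIH/3T3, barcodes that share their BC2-BC3 pair with an N2a cell held 61 Gm30835 UMIs, 133 CPM (102 to 171), while barcodes with other pairs held 14 UMIs, 10.4 CPM (5.67 to 17.4). In mESCs these levels were 78.2 CPM (52.8 to 112, from 30 UMIs) and 12.0 CPM (6.54 to 20.1, from 14 UMIs). Among barcodes that passed the filter the pair made a smaller difference, with 5.86 and 3.90 CPM in NIH/3T3 and 4.18 and 4.54 CPM in mESCs, and these intervals overlapped. The origin of these UMIs was not tested.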

How the results depend on the processing

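The N2a level was 3523 CPM over cells called by the STARsolo default rule, 3392 CPM over all barcodes and 3312 CPM as a mean of per-cell shares, and over all barcodes NIH/3T3 and mESCs were at 9.33 and 7.13 CPM. Cells at 0 were 3.09% and 0.919% after thinning to 2000 and 3000 UMIs, with variance over mean of 2.66 and 3.57, and 9.19% without cells under 0.5% mitochondrial UMIs, an alternative that was chosen after seeing the data, as were the groups matched for mitochondrial share and G2/M UMIs. Counts of genes higher and lower depended on how groups and limits were set. They were 159 and 22 with groups by thinned share, 465 and 176 with the outer 10%, 230 and 45 with the outer 25%, 640 and 436 from 10 CPM, 2021 and 1102 with no minimum, 694 and 658 at 1.25-fold, and 303 and 48 with groups matched for G2/M. The share of higher genes among those counted was 59.5% from 10 CPM and 51.3% at 1.25-fold, against 79.2% in the report. G2/M genes counted lower were 15 without the deepest 5% of cells, 14 by mean of per-cell shares and 2 with groups matched for G2/M, against 24. Mitochondrial genes counted lower were 1 by mean of per-cell shares and 0 with groups matched for mitochondrial share, against 4. Ribosomal genes counted lower were 15 by mean of per-cell shares and 0 when matched for depth or mitochondrial share or without the cells under 0.5% mitochondrial UMIs, against 2. The chromosome 5 window was at 0.17 when matched for depth, and the correlation of Cntn3 was 0.31 at 1000 UMIs. Where no construction of the alternative gives it, the cause was not tested. Of 297 recomputed ratios of 27 named genes, 0 changed direction, 192 stayed within the counting interval and 105 left it. The 27 were the 10 largest and 10 smallest ratios in set A, with Cntn3, Pde10a, Lncpint, Neat1, Alk, Ddit3 and Slbp. The latter had ratios from 1.92 (Alk) to 7.91 (Neat1). A change of direction was unlikely for such genes in overlapping cells, and the other genes named were not recomputed in this way. No paired analysis was possible because each line is 1 sample.

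The main limits are that each line was 1 culture in 1 library, so neither the difference between lines nor that between cells has a biological replicate. Sets A and B share that culture. Summed counts give deep cells more weight, and doublets were not removed. Depth limits low genes: at 3 UMIs or fewer in a group no ratio was given.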

Other observations

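Of the 18 genes at least 4-fold higher in Gm30835-high cells in both sets, a class chosen after its values were seen, 12 were protein-coding and 6 were lncRNA genes, on 11 chromosomes. Those not described in the report include Crebrf, a regulator of the CREB3 family, at 38.6 CPM in low and 231 CPM in high cells, and Pecam1, an adhesion molecule best known from endothelium, at 29.0 and 150.3 CPM. The folliculin partner Fnip1 was at 126 and 604 CPM, Rab43, a small GTPase of the Golgi, at 23.9 and 110 CPM, and the lncRNAs 4930471E19Rik and Gm38093 at 14.2 and 97.1 CPM and at 27.8 and 173 CPM. Of the 18 genes, 9 were N2a-restricted by the criterion of the report, against 4.30% of all 4625 genes compared. Pecam1, at 189 CPM in mESCs, was not. Most of the 18 were below 50 CPM in low cells, so they passed the minimum mean CPM only through the high cells. These shares are therefore a description.

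Some of the genes most like Gm30835 were far lower in the cells under 0.5% mitochondrial UMIs, where the summed level of Gm30835 was not. Most of these 82 cells were nevertheless low in Gm30835: 44 held no UMI of it and 51 were among the lowest 15%, with 15 among the highest 15%. In those 82 cells Acer3 was at 63.9 CPM, against 587 CPM in the other N2a cells, Slc47a1 at 39.9 against 414 CPM, and Dcdc2a at 91.8 against 449 CPM, while Gm30835 was at 3768 against 3492 CPM. Others were closer to the rest of the cells: Cntn3 was at 1321 against 1616 CPM, Pde10a at 2590.2 against 3779 CPM, Lncpint at 838 against 788 CPM, and Zfp804b at 75.8 (45.7 to 118) against 84.6 CPM. NIH/3T3 held 13 such cells and mESCs 24.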
